A study of Mus musculus with 7 samples.

Results

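Transcripts of 10 inflammatory genes were followed in muscle stem cells (MuSCs) from WT and homozygous Jag2sm mice, out of 56748 genes listed in the count files. These were the chemokines Cxcl10, Ccl5, Ccl2, Ccl7, Cxcl1 and Cxcl5, the cytokine Il6, and the NF-kB feedback and pathway genes Nfkbia, Tnfaip3 and Relb. They were selected by name, from known biology and with earlier results of these libraries in view, so the difference between the genotypes in these genes is given as a description, with no test. Jag2sm is a naturally occurring hypomorphic allele of Jag2, a ligand of NOTCH receptors. The titles of the 4 mutant samples name it, whereas their genotype field reads Jag2-/-. All mice were adult, and nothing in the labels gives a strain or says whether replicates of a genotype came from separate animals or cultures. MuSCs were taken from hind limb muscle by magnetic sorting that removed cells positive for CD31, CD45 or Sca1 and then kept those positive for Integrin α7. The study's culture methods use growth medium with serum and bFGF, and its sequencing methods do not say whether the cells read here were cultured. RNA was read as direct cDNA on a Nanopore instrument from 3 WT and 4 Jag2sm libraries.

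NF-kB is a family of transcription factors held in the cytoplasm by inhibitor proteins and released when receptors for TNF, IL-1 or microbial products are engaged. Released NF-kB switches on chemokine and cytokine genes, and also Nfkbia and Tnfaip3, whose products shut the pathway down again. Interferons act through other transcription factors and drive a separate set of genes, with which Cxcl10 and Ccl5 are usually counted although both also answer to NF-kB. In muscle, chemokines of this kind are known for calling neutrophils and monocytes into injured tissue.

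The promoters of these genes were read first, because the 2 pathways act through different short DNA elements. In the 250 bases before the canonical start site (GRCm39, GENCODE M39), both strands were searched for the NF-kB consensus, an element of 10 bases called kappaB, and for the interferon element GAAANNGAAA. The kappaB consensus was found in 8 of the 10 promoters, against 7.63% of 21757 protein-coding promoters of the same length. It was absent from those of Ccl2 and Ccl7, whose windows held neither set of letters. The interferon element was found in 1 of the 10, that of Cxcl10, and in 3.32% of all promoters. The genes had been picked as known NF-kB targets, so the high share is a description of them, and a match is not evidence of binding. 5 of the promoters are shown in the direction of transcription, each ending 1 base before the start, with kappaB and interferon matches in capitals. Cxcl10 is shown because it carries both elements, Ccl5, Cxcl1 and Nfkbia because each carries kappaB close to the start, and Ccl2 because it carries neither. The windows are chr5:92496749-92496998 (minus strand), chr11:83421346-83421465 (minus strand), chr5:91038974-91039093 (plus strand), chr12:55539433-55539552 (minus strand) and chr11:81926277-81926396 (plus strand).
Cxcl10: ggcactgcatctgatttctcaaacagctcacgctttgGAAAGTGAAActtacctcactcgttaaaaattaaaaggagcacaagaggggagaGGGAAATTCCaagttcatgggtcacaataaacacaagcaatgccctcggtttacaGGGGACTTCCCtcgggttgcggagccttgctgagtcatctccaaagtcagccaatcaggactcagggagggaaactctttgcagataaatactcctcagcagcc
Ccl5: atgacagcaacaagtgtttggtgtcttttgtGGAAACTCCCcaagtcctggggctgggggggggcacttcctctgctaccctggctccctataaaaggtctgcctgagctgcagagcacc
Cxcl1: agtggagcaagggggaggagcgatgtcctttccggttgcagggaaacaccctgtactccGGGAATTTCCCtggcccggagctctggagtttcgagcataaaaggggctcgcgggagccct
Nfkbia: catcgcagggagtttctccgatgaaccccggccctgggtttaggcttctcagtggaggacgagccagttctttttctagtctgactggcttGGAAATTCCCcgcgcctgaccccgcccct
Ccl2: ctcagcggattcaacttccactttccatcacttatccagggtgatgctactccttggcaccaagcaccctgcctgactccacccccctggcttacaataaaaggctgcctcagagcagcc
In Cxcl10 the first run of capitals is the interferon element, at -213 to -204, and the others are kappaB matches. The last run holds overlapping matches, at -104 to -95 on the plus strand and at -103 to -94 on both strands, relative to the gene. The single runs in Ccl5, Cxcl1 and Nfkbia are kappaB matches, and that of Cxcl1 holds 1 match on each strand, shifted by 1 base.

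The genes lie on 5 chromosomes. Cxcl5, Cxcl1, Cxcl10 and Il6 are on chromosome 5, and Ccl2, Ccl7 and Ccl5 on chromosome 11, where Ccl2 (chr11:81926397-81928279) and Ccl7 (chr11:81936532-81938351) are neighbours on the plus strand. Exons of Cxcl10, Cxcl5, Nfkbia and Tnfaip3 overlap exons of another gene on the opposite strand (Art3, Gm72413, Gm36634 and Gm67161). The strand setting of the read counting is not given in the sources used here, so reads from the partner gene could be among their counts.

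The libraries differed in depth and in the fate of their reads. Gene counts summed to 187834 in WT replicate 1, the shallowest library, and to 1937581 in the deepest, Jag2sm replicate 3. In WT replicate 1, 1 read made 5.76 CPM (counts relative to TMM-scaled library depth), so its low values are coarse, and reads outside genes made up 45.1% of those aligned, where the other libraries had 20.8% to 25.7%. Unaligned reads made up 50.8%, 46.7% and 46.0% of Jag2sm replicates 1, 2 and 4, but 3.07% of Jag2sm replicate 3 and 2.44% to 3.24% of WT libraries. Jag2sm replicates 1, 2 and 4 also held most of the chemokine reads. Ccl2, Ccl5, Ccl7, Cxcl1 and Cxcl5 together had 351, 241 and 149 reads in them, 12 in Jag2sm replicate 3, and 5, 6 and 3 in WT libraries. What the unaligned reads are, and their part in the chemokine values, was not tested. In bulk RNA such as this, more cells of a type and more RNA per cell cannot be told apart.

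**Figure D1:**
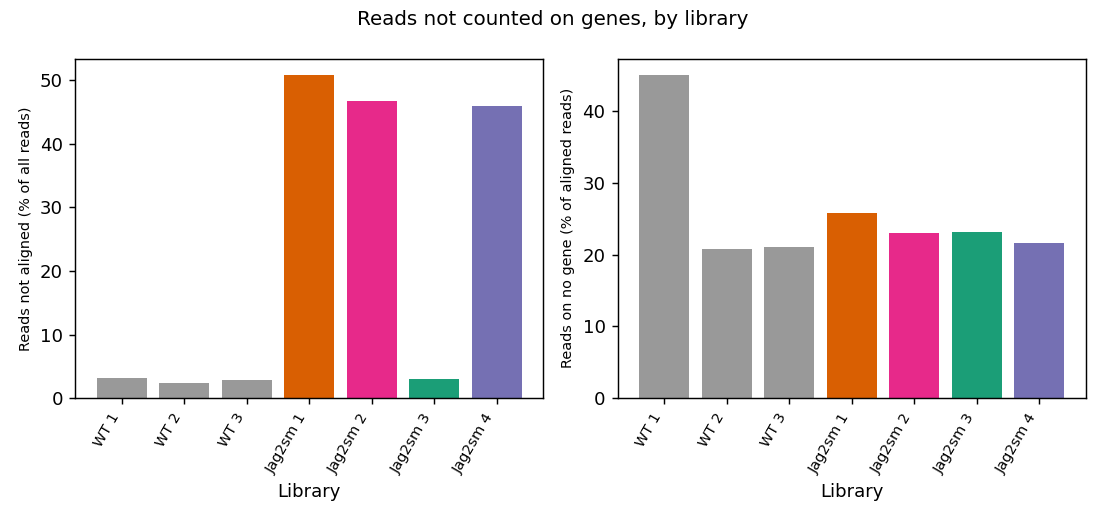
Unaligned reads as a percent of all reads (left) and reads outside genes as a percent of aligned reads (right) in each of the 7 libraries, 1 bar per library. Jag2sm replicates 1, 2 and 4 had 46.0% to 50.8% of reads unaligned and all others 2.44% to 3.24%, while WT replicate 1 stood apart on the right at 45.1%.

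Jag2, the mutated gene, was read at 80.7, 114 and 116 CPM in WT and at 42.4, 78.8, 71.9 and 77.4 CPM in Jag2sm libraries. All 4 Jag2sm libraries were below the 3 WT libraries. Its log2 fold change was -0.64 (SE 0.24) and did not pass the test across all genes (edgeR quasi-likelihood test, Benjamini-Hochberg adjusted p = 0.166, n = 3 and 4).

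The chemokines were nearly unread in WT MuSCs, and most of their reads were in 3 of the 4 Jag2sm libraries. Ccl5, a chemokine for T cells and monocytes, had 0, 1 and 0 reads in WT libraries and 56, 61, 1 and 23 reads in Jag2sm replicates 1 to 4. In CPM these were 0, 0.646 and 0 in WT and 79.2, 42.2, 0.493 and 18.7 in Jag2sm. Replicates 1, 2 and 4 were above every WT library, and replicate 3 was at the WT level. Over the pooled reads of each genotype, 1 WT and 141 Jag2sm reads made a ratio of 72.3 after scaling to depth, with a 95% exact binomial (Clopper-Pearson) interval of 12.8 to 2876 that covers counting error only. The fitted log2 fold change was 6.13 (SE 1.80), a value that depends on the small count edgeR adds to each library where WT reads are this few. Within batches 1, 2 and 3, the number that the labels give to pairs of WT and Jag2sm libraries, the differences in log2 CPM were 5.56, 4.22 and 0.37.

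Cxcl1, a chemokine for neutrophils, had a similar profile. It was read at 5.76, 0.646 and 0 CPM in WT, from 1, 1 and 0 reads, and at 102, 63.6, 0 and 50.5 CPM in Jag2sm, from 72, 92, 0 and 62 reads. Again replicates 1, 2 and 4 were high and replicate 3 had none. The pooled ratio was 58.0 (15.9 to 481), the log2 fold change was 5.93 (SE 1.74), and the differences within batches were 3.79, 4.79 and 0.00 on the log2 scale.

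Cxcl5, which binds the same neutrophil receptor, was uneven among the Jag2sm libraries. It was read at 0, 1.29 and 1.90 CPM in WT and at 238, 24.2, 0.493 and 29.3 CPM in Jag2sm, so that replicate 1 alone held 168 of the 240 Jag2sm reads. The pooled ratio was 30.8 (11.9 to 114) from 4 WT reads, and the log2 fold change was 5.44 (SE 1.87). Within batches the differences were 7.13, 3.11 and -0.71. The last rests on 1 read in Jag2sm replicate 3 and 2 reads in WT replicate 3, too few to give a direction.

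Ccl2 and Ccl7 are neighbouring genes whose products attract monocytes, and Ccl2 had the most WT reads of the chemokines, 5 in all. Ccl2 was read at 17.3, 0.646 and 0.948 CPM in WT, where the first value rests on 3 reads, and at 59.4, 31.8, 3.94 and 18.7 CPM in Jag2sm. Replicates 1, 2 and 4 lay above all WT libraries, and replicate 4 only just. The log2 fold change was 3.67 (SE 1.18), and ran from 2.79 without WT replicate 2 to 4.91 without WT replicate 1. The pooled ratio was 12.2 (5.09 to 38.3) and the differences within batches were 1.68, 3.83 and 1.09. Ccl7 had 1, 1 and 0 reads in WT and 13, 7, 2 and 5 reads in Jag2sm, too few to enter the fit across genes. At 18.4 CPM Jag2sm replicate 1 was the only library above every WT library, and the pooled ratio was 6.92 (1.74 to 60.1).

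Cxcl10 and Il6 were barely detected. Cxcl10, a chemokine for T cells and the best known interferon-driven gene of the 10, had 0 reads in 6 of the 7 libraries and 5 reads in Jag2sm replicate 2, which is 3.46 CPM. Il6 had 2 reads in Jag2sm replicate 1, 1 in replicate 4 and 0 in all other libraries. With 0 reads in WT, the pooled WT depth allows up to 1.08 CPM, counted as 3 reads over the genotype. The pooled Jag2sm levels of 0.924 CPM for Cxcl10 and 0.554 CPM for Il6 are below that limit, so no fold is given and a difference was not detectable at this depth.

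The feedback and pathway genes were read in every library, as was Ccl2 among the chemokines. Nfkbia, which encodes the inhibitor IkBα that holds NF-kB in the cytoplasm, was read at 51.9, 66.6 and 55.0 CPM in WT and at 177, 157, 52.7 and 117 CPM in Jag2sm. Replicates 1, 2 and 4 were above every WT library and replicate 3 lay among them. The means were 57.8 ± 7.74 CPM (SD, n = 3) and 126 ± 54.7 CPM (SD, n = 4), and the log2 fold change was 1.07 (SE 0.38). Within batches the differences were 1.74, 1.22 and -0.06. Tnfaip3, which encodes the deubiquitinating enzyme A20, was read at 11.5, 13.6 and 10.4 CPM in WT and 15.6, 15.2, 7.39 and 16.3 CPM in Jag2sm. The higher 3 Jag2sm values exceeded the WT values by little, and replicate 3 was the lowest of all libraries. Its log2 fold change was 0.13 (SE 0.38) and turned to -0.02 under limma-voom and to -0.03 with the replicate block. Relb, a subunit of the non-canonical NF-kB dimer, was read at 34.6, 18.7 and 13.3 CPM in WT and 33.9, 42.2, 11.8 and 21.2 CPM in Jag2sm. The genotypes overlapped, with a log2 fold change of 0.52 (SE 0.48).

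**Figure D2:**
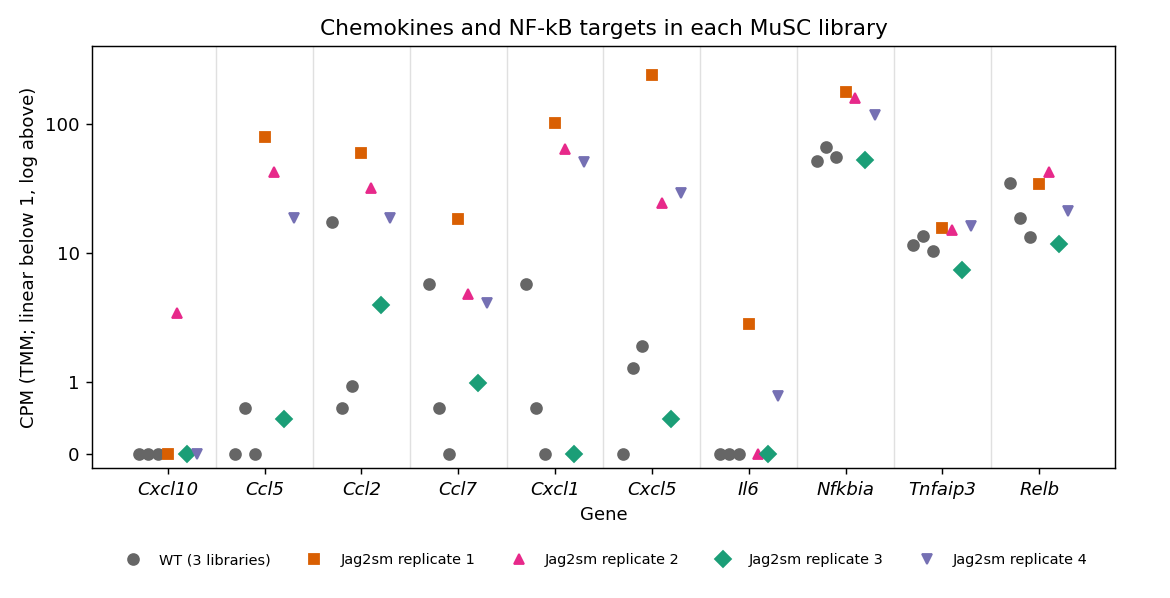
Level of each of the 10 genes in the 7 libraries, in CPM after TMM scaling on an axis that is linear below 1 and logarithmic above, with 1 point per library. Jag2sm replicates 1, 2 and 4 lie above the WT points for Ccl5, Ccl2, Cxcl1, Cxcl5, Nfkbia and Tnfaip3, whereas replicate 3 is not above every WT library for any gene.

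Compared per kilobase of transcript, the mean levels in Jag2sm libraries ran from Nfkbia (79.8 CPM per kb) through Ccl5 (65.7), Cxcl1 (56.3), Cxcl5 (46.3) and Ccl2 (35.0) to Ccl7 (8.76), Relb (8.04), Tnfaip3 (1.97), Il6 (0.798) and Cxcl10 (0.785). From Nfkbia down to Ccl7, each gene's SD over the 4 libraries exceeded its distance to the next gene in this order, so neighbours there do not differ beyond their spread. Relb and Tnfaip3 were each separated from the next gene by more than their SD. This order depends on the division by length, and counts of long reads may not grow with transcript length. In CPM without that division, Relb was above Ccl7 in each Jag2sm library (33.9, 42.2, 11.8 and 21.2 against 18.4, 4.84, 0.985 and 4.08). In WT libraries Nfkbia led at 36.6 CPM per kb, followed by Ccl2 (7.74), Relb (6.54), Ccl7 (2.65), Cxcl1 (2.23), Tnfaip3 (1.71), Cxcl5 (0.675) and Ccl5 (0.403). The values of Ccl2, Ccl7 and Cxcl1 there come mainly from 1 to 3 reads in the shallow WT replicate 1.

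7 of the 10 genes entered the fit across 9489 genes, whose median log2 fold change was 0.05. Ccl5, Ccl2, Cxcl1 and Cxcl5 had 1, 5, 2 and 4 reads in WT libraries together and passed the filter on low counts through the Jag2sm libraries, so a positive fold change was built into their passing. As a description only, 0 of the 7 were called higher by edgeR at an adjusted p under 0.05, where 1.42% of all tested genes were called higher and 4.84% lower. 5 of them had an unadjusted p under 0.05, as did 1873 of the 9489 genes tested. limma-voom, the robust fit and library size alone also called 0. DESeq2 called 2 (Ccl5 and Cxcl5, where 0.818% of all genes were called higher), and edgeR with the replicate number as a block 4 (Ccl5, Ccl2, Cxcl1 and Cxcl5, where the share was 1.23%). With no filter on low counts 5 were called (those 4 and Nfkbia, share 1.86%), and the same 5 without Jag2sm replicate 3 (share 2.39%). Each of the other 6 fits that left out 1 library called 0. None of the 10 genes had every Jag2sm library above every WT library, a pattern seen in 10.3% of the genes tested. The members were chosen with this contrast known, and nothing is read from these counts.

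The Jag2sm libraries could be compared with each other, gene by gene. 8 of the 10 genes were above every WT library in replicate 1, 8 in replicate 2, 7 in replicate 4 and 0 in replicate 3. These counts include Il6 in replicate 1 (2 reads) and replicate 4 (1 read), and Cxcl10 in replicate 2 (5 reads). Both genes had 0 WT reads and no detectable difference. Over all genes tested the shares above every WT library were 30.8%, 29.6%, 29.3% and 30.6% in replicates 1, 2, 4 and 3, so that replicate 3 was not low in general. The summed level of the 5 detected chemokines (Ccl2, Ccl5, Ccl7, Cxcl1 and Cxcl5) was 28.8, 3.88 and 2.85 CPM in WT and 496, 167, 5.91 and 121 CPM in Jag2sm replicates 1 to 4. All 5 were highest in replicate 1 and lowest in replicate 3, where 29.6% of all genes tested were highest in replicate 1 and 27.8% lowest in replicate 3.

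Interferon response genes were high in the same 3 libraries but in another order. The summed level of 28 genes of the interferon system was 259, 187 and 161 CPM in WT and 880, 3293, 214 and 1587 CPM in Jag2sm replicates 1 to 4. Replicate 2 was highest in 17 of the 22 tested genes and in all 6 called ones, where 19.3% of all genes tested were highest in replicate 2 and 29.6% in replicate 1. Isg15, a ubiquitin-like protein induced by interferon, was read at 143, 917, 8.87 and 373 CPM in Jag2sm and 0, 3.88 and 2.85 CPM in WT, and Ifit1, which binds viral RNA, at 77.8, 204, 6.90 and 103 CPM against 0, 0.646 and 0 from 1 WT read (pooled ratio 251, interval 44.9 to 9946). Ccl5, counted among interferon-driven genes and itself 1 of the 5 chemokines summed, was highest in replicate 1, with 79.2 CPM there and 42.2 in replicate 2. The 5 reads of Cxcl10 were in replicate 2, the library with the most interferon signal. These orders are descriptions of 4 libraries and were not tested.

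**Figure D3:**
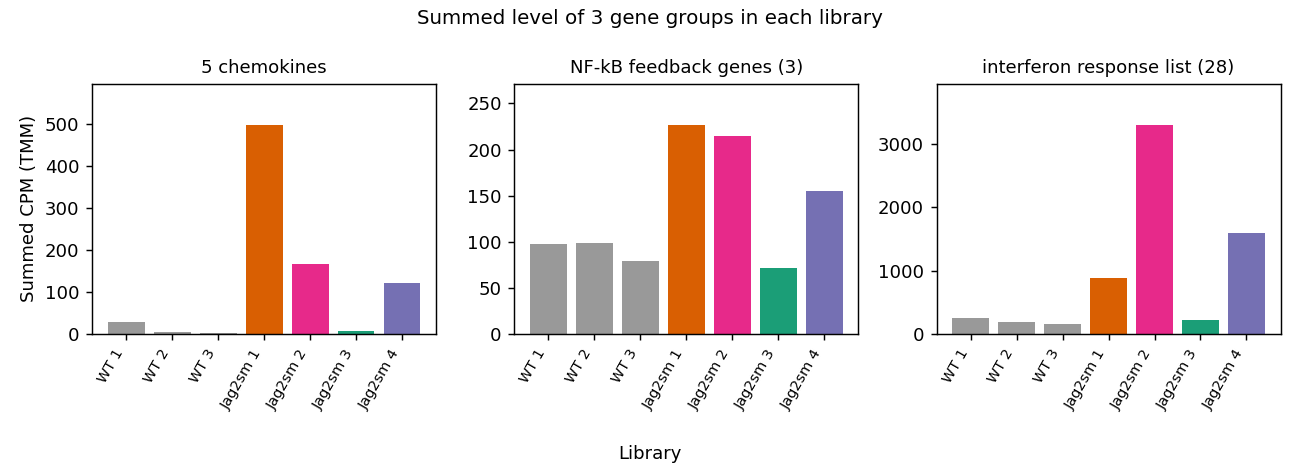
Summed CPM of 5 chemokines (left), of Nfkbia, Tnfaip3 and Relb (middle) and of 28 interferon response genes (right) in each library, 1 bar per library, with a separate axis for each panel. The chemokine sum peaks in Jag2sm replicate 1 at 496 CPM and the interferon sum in replicate 2 at 3293 CPM, while Jag2sm replicate 3 lies at 5.91 and 214 CPM.

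In the interferon list 21 of 22 tested genes had a positive log2 fold change and 6 were called higher, beside 1.42% of all genes, with a median of 4.05, or 4.02 with Ifit3b, which had no WT read, at its bound. Ifit1 and Ifit3b, with 1 and 0 WT reads, are examples of genes that passed the filter on low counts through the Jag2sm libraries, which in part sets this count of signs and this median. Among the 6 called were Ifit1 (7.71, SE 1.59, adjusted p = 0.0177), Isg15 (6.78, SE 1.53, adjusted p = 0.0262), Bst2, Rtp4 and Xaf1, all by the edgeR quasi-likelihood test with Benjamini-Hochberg adjustment. WT reads were 0, 6 and 3 for Isg15, 0, 11 and 8 for Bst2, 1, 2 and 4 for Rtp4, and 0, 12 and 6 for Xaf1. These genes also passed the filter through the Jag2sm libraries. A positive sign was thus built into their passing, and the calls and p-values in this list are a description only. With 1 library left out, the log2 fold change of Isg15 ran from 5.73 to 7.19. That of Ifit1 ran from 7.14 to 9.76 in the 4 such fits that held it. Irf7 and Irgm1, the most abundant uncalled genes, had log2 fold changes of 4.88 and 3.28 with adjusted p = 0.0713 and 0.0518. With 0, 4 and 3 and with 1, 10 and 6 WT reads, both passed the filter in the same way. With the replicate block 15 were called, and without Jag2sm replicate 3 also 15. limma-voom and the robust fit called 0, as did the fits without WT replicate 2, WT replicate 3 or Jag2sm replicate 2.

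In the signalling machinery of NF-kB, 1 of 35 tested genes was called, and it was lower in Jag2sm, beside 4.84% of all genes tested. The list held 45 genes for receptors, kinases, adaptors, NF-kB subunits and inhibitors, and those tested were 18 with a positive and 17 with a negative fold change, and the median was 0.00. That gene was Cyld, a deubiquitinating enzyme that restrains NF-kB, and it fell. It was read at 80.7, 78.2 and 60.7 CPM in WT and 32.5, 38.0, 37.9 and 25.3 CPM in Jag2sm, with all Jag2sm libraries, replicate 3 included, below all WT libraries. Its log2 fold change was -1.09 (SE 0.23, edgeR adjusted p = 0.0192), and the adjusted p was 0.0893 with the replicate block, 0.140 after thinning to the smallest library, 0.114 without WT replicate 2 and 0.0524 without Jag2sm replicate 2. Rela, the main activating subunit, and Tnfrsf1a, the receptor for TNF, were the most abundant uncalled genes, with log2 fold changes of -0.15 (SE 0.24) and 0.27 (SE 0.22). Nfkbiz, an inhibitor family member named here after its values were seen, had all Jag2sm libraries above WT, at 90.5, 62.2, 23.7 and 44.0 CPM against 17.3, 21.3 and 12.3, with an adjusted p of 0.0688 that became 0.0359 with the block. It was the only 1 of the 35 tested genes with that order, which 980 of all 9489 genes tested had. Of the 35, Cyld and Nfkbib had all Jag2sm libraries below WT, as did 1158 of all genes tested. Il1r1, a receptor for IL-1 also named after its values were seen, went down (log2 fold change -1.28, SE 0.36, edgeR adjusted p = 0.0654).

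Of 30 other genes known as NF-kB targets, 14 were tested, 9 had a positive fold change and the median was 0.40. Only Csf1, the growth factor of macrophages, was called higher, beside 1.42% of all genes tested, with 294, 285 and 212 CPM in WT and 530, 562, 627 and 371 CPM in Jag2sm. It rose by a log2 fold change of 1.00 (SE 0.26, edgeR adjusted p = 0.0449), and Jag2sm replicate 3 was its highest library, unlike the chemokines. The adjusted p of Csf1 was 0.0787 with the replicate block and 0.137 after thinning to the smallest library, and the call was also lost without any 1 of WT replicates 2 and 3 and Jag2sm replicates 1, 2 and 3, at 0.0814 to 0.216. Sqstm1, an autophagy receptor, and Bcl2l1, a survival factor, the most abundant uncalled genes, had log2 fold changes of -0.13 (SE 0.28) and -0.44 (SE 0.29). Irf1, a transcription factor induced by interferon and by NF-kB, is named after its values were seen. All its Jag2sm libraries were above WT (12.7, 19.3, 7.39 and 13.9 CPM against 0, 3.23 and 3.79). Irf1 had 0, 5 and 4 reads in WT and passed the filter on low counts through the Jag2sm libraries. A positive sign was thus built into its passing, and its edgeR adjusted p of 0.0558 is a description only. Among the 14 tested genes 3 had all Jag2sm libraries above WT and 1 all below, where 980 and 1158 of all 9489 genes tested did. The 1 below was Sod2, also named after its values were seen, at 119, 125, 133 and 135 CPM in Jag2sm against 167, 178 and 172 in WT.

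Of 53 further chemokines and chemokine receptors, 6 were tested and 5 had a positive fold change, with a median of 1.24. One of them, Ccl27a, had 2, 0 and 0 reads in WT and passed the filter on low counts through the Jag2sm libraries, so its positive sign was built into its passing. Cxcl12, the stromal chemokine that holds cells in place through Cxcr4, was the only one called higher, beside 1.42% of all genes tested. It was read at 46.1, 118 and 91.0 CPM in WT and 148, 367, 335 and 228 CPM in Jag2sm, and all Jag2sm libraries were above WT. It rose by 1.57 on the log2 scale (SE 0.36, edgeR adjusted p = 0.0298), with an adjusted p of 0.0604, 0.0561 and 0.126 without WT replicates 1, 2 and 3 and 0.0887 without Jag2sm replicate 2. Its receptors Cxcr4 and Ackr3 had log2 fold changes of 0.62 (SE 0.39, adjusted p = 0.413) and 1.14 (SE 0.37, adjusted p = 0.100). Of 13 genes of the IL-6 family and its signalling, 6 were tested and edgeR called 0, with 1 at an unadjusted p under 0.05, where 1873 of all 9489 tested genes were. DESeq2 called 1, limma-voom 0 and the replicate block 1. That gene was Il11, a cytokine that shares the gp130 receptor subunit with IL-6, at 0, 4.52 and 3.79 CPM in WT and 90.5, 13.1, 18.2 and 3.26 CPM in Jag2sm (log2 fold change 2.82, SE 1.10, adjusted p = 0.180, and 0.0451 with the block). Il11 had 0, 7 and 4 reads in WT and also passed the filter on low counts through the Jag2sm libraries. Its positive fold change was built in the same way, so these p-values are a description only. Il6st, which encodes gp130, and Socs3, an inhibitor of the pathway, had log2 fold changes of -0.81 (SE 0.38) and 1.01 (SE 0.53), uncalled.

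**Figure D4:**
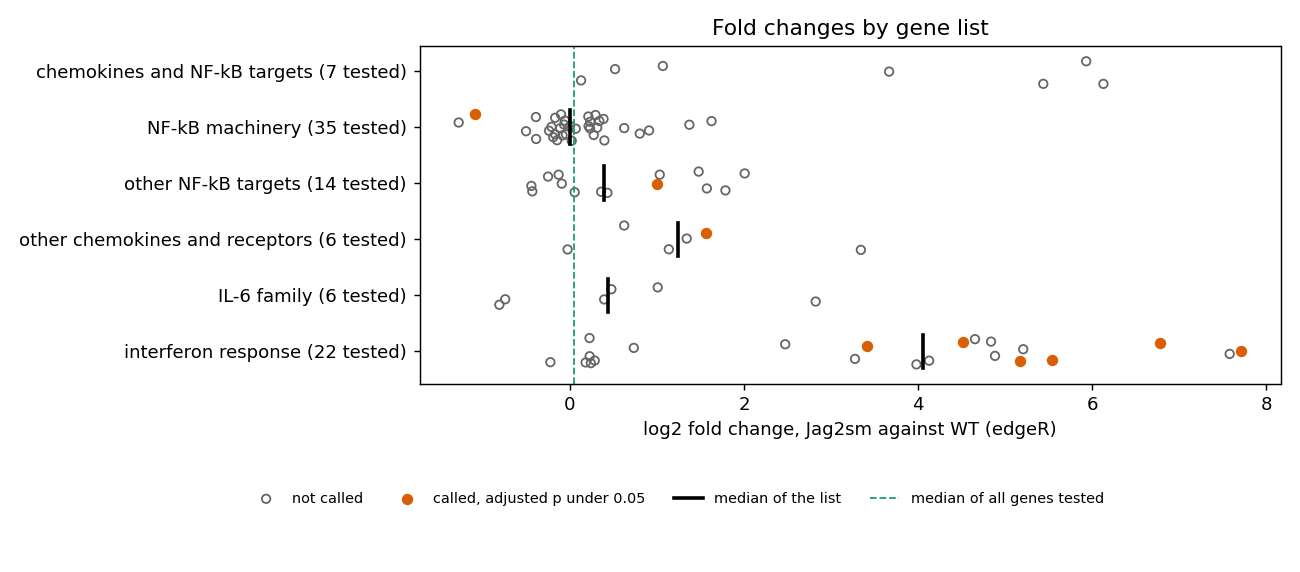
Log2 fold change between Jag2sm and WT (edgeR) of every tested gene in 6 lists, 1 point per gene, filled where the adjusted p was under 0.05, with a black bar at the median of each of the lower 5 lists and a dashed line at the median of all genes tested. The chemokines and NF-kB targets reach 6.13, and the NF-kB machinery is centred on 0.00.

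Markers of other cells that make these chemokines were examined in the same libraries. Of 20 immune markers 10 had no read in any library, among them Ptprc (CD45), Adgre1 and Cd3e, which define leukocytes, macrophages and T cells. The summed immune signal was 5.76, 27.8 and 28.5 CPM in WT and 22.6, 13.1, 4.93 and 8.15 CPM in Jag2sm. Laptm5, a lysosomal gene and the most abundant of them, was read at 5.76, 22.6 and 19.9 CPM in WT and 12.7, 6.91, 3.45 and 2.45 CPM in Jag2sm (log2 fold change -1.74, SE 0.52, edgeR adjusted p = 0.0760). Of 10 endothelial markers 3 had no read, the summed signal was at most 17.3 CPM, and none entered the fit. Of 10 fibro-adipogenic markers 2 had no read, and the sum was 63.4, 282 and 142 CPM in WT and 218, 372, 243 and 322 CPM in Jag2sm, mainly from Col3a1 (log2 fold change 0.93, SE 0.43, adjusted p = 0.262) and Col1a1 (-0.97, SE 0.75, adjusted p = 0.528). All 8 myogenic markers were read. Their sum was 5868, 3244 and 3218 CPM in WT and 1978, 2020, 1954 and 2437 CPM in Jag2sm, and Des, the muscle intermediate filament and the most abundant of them, fell by 1.63 on the log2 scale (SE 0.36, adjusted p = 0.0244). Its adjusted p was 0.0596 with the replicate block, 0.0601 without Jag2sm replicate 1 and 0.0890 without Jag2sm replicate 2. Without Des the sums of the other 7 were 1268, 1437 and 1343 CPM in WT and 1066, 1184, 1248 and 1334 CPM in Jag2sm, which overlap. Pax7, which marks MuSCs and is named here after its values were seen, was read at 28.8, 95.7 and 80.6 CPM in WT and 100.4, 129, 172 and 125 CPM in Jag2sm (log2 fold change 0.80, SE 0.31, edgeR adjusted p = 0.174), with all Jag2sm libraries above WT. Of the 7 myogenic markers tested, 2 had a positive and 5 a negative fold change. Itga7 (-0.63, SE 0.40), Cdh15 (-0.61, SE 0.32) and Megf10 (-0.33, SE 0.24), also named after their values were seen, were among the negative ones and uncalled. Myod1 and Myf5, the commitment factors, had log2 fold changes of -0.19 (SE 0.22) and 0.60 (SE 0.53). The part of these cells in the chemokine values was not tested beyond these levels.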

How the data were processed

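RNA of MuSCs was measured in 3 WT and 4 Jag2sm libraries. The authors aligned reads to GRCm39 with minimap2 2.17 and deposited raw counts per gene from HTSeq for each library. Annotation release, HTSeq version and strand setting are not given in the sources used here. The authors' own comparison, from DESeq2 in R 4.3.0, holds fold changes and p-values and was not used. Of 56748 gene identifiers, 56017 were found in GENCODE M39. The 5 summary lines stayed out of library sizes.

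Differences were fitted with edgeR 4.0.16 in R 4.3.3 (filterByExpr with minimum count 10 and minimum total count 15, TMM, glmQLFit, glmQLFTest, no covariate), and calls were made where p, adjusted over 9489 genes by Benjamini-Hochberg, was under 0.05. Each SE was derived from the fold change and the F statistic. Log2 CPM uses a prior count of 2, and where no read was found 3 counts were taken as the limit. Intervals used SciPy 1.17.1 at 95% and cover counting error only. Fits were tested on simulated data. Alternatives used limma 3.58.1 and DESeq2 1.42.0, other scalings and filters, thinning, a replicate block, and each library left out. Depth was 187834 to 1937581 gene reads per library, and p-values measure the spread between these samples, which may be technical.

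The labels give each library a batch number equal to its replicate number, which pairs WT and Jag2sm 1, 2 and 3. Deviations from the genotype means correlated at 0.0740, 0.0144 and 0.0539 across genes in the 3 pairs. The block is an alternative, since the study's methods name no covariate.

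Members and lists were chosen with earlier results of these data known. Named are all members, Jag2, in each other list the called genes (or the 3 with the smallest p where none was called) and the 2 most abundant uncalled ones per kilobase. Exceptions are marked, and 1 gene that the rule names is not reported here.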

Additional observations from a re-analysis of the deposited data

Results flagged for a closer look

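Cxcl5 in Jag2sm replicate 1, at 238 CPM, stood far from the other 3 Jag2sm libraries, at 0.493 to 29.3 CPM. Tnfaip3 in Jag2sm replicate 3, at 7.39 CPM, lay far below the other 3, at 15.2 to 16.3 CPM. Cxcl10 in Jag2sm replicate 2, at 3.46 CPM from 5 reads, held every read of that gene. 37 genes were listed for this check and 3 stood out, where chance gives about 1 in 20 for normally distributed values. The values of Cxcl10, with all its reads in 1 library, are not of that kind. Il6, listed too, had too few Jag2sm reads to be examined.

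Reads that did not align made up 50.8% of Jag2sm replicate 1, 46.7% of replicate 2 and 46.0% of replicate 4, against at most 3.24% in WT libraries and 3.07% in Jag2sm replicate 3. These reads enter no comparison, and their origin was not tested.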

How the results depend on the processing

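The 594 genes called across the table became 1248 without a filter on low counts, 274 with at least 10 counts in every library, 286 after thinning to the smallest library, and 251 to 616 with 1 library left out. Library size alone moved the median log2 fold change of all genes from 0.05 to 0.21 and called 241 genes higher and 384 lower, against 135 and 459. NF-kB machinery calls (1) became 2 under DESeq2, limma-voom and library size alone, 3 without a filter, 0 after thinning and 0 to 3 with 1 library left out. Other NF-kB target calls (1) became 2 under library size alone, 7 without a filter, 0 with the replicate block, 0 after thinning and 0 to 2 with 1 library left out. Other chemokine and receptor calls (1) became 4 without a filter, 0 with at least 10 counts in every library and 0 to 2 with 1 library left out. IL-6 family calls (0) became 1 under DESeq2, without a filter and with the replicate block, and stayed 0 with 1 library left out. Interferon response calls (6) became 15 under DESeq2 and the replicate block, 16 without a filter, 3 after thinning, 0 under limma-voom, the robust fit and at least 10 counts in every library, and 0 to 15 with 1 library left out. The fits calling 15 (DESeq2, the replicate block and without Jag2sm replicate 3) were not compared gene by gene.

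The log2 fold change of Tnfaip3 (0.13) turned to -0.0217 under limma-voom and -0.0348 with the replicate block, and lay between -4.65e-05 and 0.374 with 1 library left out. Rela (-0.15) turned to 0.0151 under library size alone and 0.0213 with at least 10 counts in every library, and Sqstm1 (-0.13) to 0.0308 and 0.0580 under the same settings. With 1 library left out Rela ran from -0.338 to 0.0405, Sqstm1 from -0.298 to 0.235 and Col1a1 (-0.97) from -2.21 to 0.298. Tnfrsf1a (0.27) turned to -0.527 after thinning. Under limma-voom Ccl5, Cxcl1 and Cxcl5 had smaller values (3.15, 2.74 and 2.46), and without WT replicate 2 Ccl5 had 8.19. The causes were not tested. Ccl5, Cxcl1 and Cxcl5 could not be fitted without Jag2sm replicate 1, 2 or 4, because too few libraries then held enough counts, and no member could be fitted with at least 10 counts in every library.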
